A study of Mus musculus castaneus and Mus musculus domesticus and Mus musculus with 11 samples.

Results

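The genes described here are the mouse semaphorins, a family of secreted and membrane-bound guidance cues, and their receptors, the plexins and neuropilins. They were taken by symbol, and the annotation holds 31 of them, of which 27 have a row among the 27071 genes of the count matrix. The 27 are 18 semaphorin ligands and 9 receptors, namely 8 plexins and Nrp2, and all 27 had enough reads to be tested among 14839 genes. Sema4g, Sema5a, Plxnb2 and Nrp1 were not analysed here, so every sum over receptors lacks one of the neuropilins and one of the B plexins.

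RNA sequencing was carried out on motor neurons differentiated in culture from stem cell lines of 3 genotypes, with 3 libraries each. The first is CAST/EiJ, a wild-derived inbred strain of another mouse subspecies, called CAST here. The second is the hybrid CASTx129, labelled 129CAS and called the hybrid. The third is 129S6/SvEv, a laboratory inbred strain, called 129. The labels name no treatment, age or engineered allele, and do not say how many clones stand behind a genotype or whether replicates came from separate differentiations, so a p-value here covers no more than the spread of these libraries. The lines serve a study of neurite growth, and the sequencing was a check of what their neurons express; 2 further CAST samples, numbered 7 and 8, were not analysed here.

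Semaphorins steer growth cones and act on many non-neuronal cells. Class 3 members are secreted, and most of them bind a neuropilin, which holds the ligand while an A plexin or Plxnd1 passes the signal on. Members of classes 4 to 6 span the membrane, the class 7 member is anchored by a lipid, and these bind plexins directly. Inside the cell, plexins carry a GTPase-activating domain for small G proteins and recruit MICAL and collapsin response mediators, which act on actin, microtubules and adhesion. In the developing spinal cord Sema3a and Sema3f guide motor axons into the limb, and motor neurons themselves express both ligands and receptors.

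Total counts ran from 7763077 to 18167577 per library, and a pair of libraries, CAST 1 and hybrid 2, differed from the others in how reads fell on long genes. The slope of relative log2 expression per doubling of exon length was −0.49 in CAST 1, −0.60 in hybrid 2 and −0.25 in hybrid 3, while the remaining 6 lay between 0.07 and 0.31, so long transcripts took fewer reads in these 3 libraries. The genes described here are long, with a median exon length of 9054 bases for receptors and 5790 for ligands, against 4368 over all genes tested. Defining motor neuron markers were detected in all lines, some at a few CPM or less, and Lhx3 was at 0 in hybrid 1. Mnx1 stood at 2.59 ± 0.805 CPM (reads scaled to a common library size) in CAST, 1.68 ± 1.05 in the hybrid and 2.88 ± 2.05 in 129, Isl1 at 39.2, 21.8 and 35.4 CPM, Lhx3 at 0.292, 0.466 and 1.25 CPM and Chat at 8.77, 8.56 and 17.0 CPM (means in the same order, SD where given, n = 3). Fibroblast genes were abundant, with Fn1 at 3086, 7153 and 11047 CPM and Col1a1 at 1635, 3339 and 4281 CPM, while 8 endothelial markers, all detected, summed to between 14 and 26.8 CPM in CAST, 15.2 and 30.5 CPM in the hybrid and 19.7 and 46.6 CPM in 129.

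No semaphorin, plexin or neuropilin passed edgeR's test between the lines once p-values were adjusted over all genes. The ligands Sema3e, Sema3d, Sema4c and Sema6a had lower values in every CAST and every hybrid library than in any 129 library. The receptor Plxnb3 had higher values in every hybrid than in any 129 library, but none of these differences passed. EdgeR's quasi-likelihood test called 0 of 27 in CAST against 129, where it called 0.917% of all genes tested. It called 0 of 27 in the hybrid against 129 (7.02% of all genes), 0 of 27 in the hybrid against CAST (6.0%) and 0 of 27 (7.34%) when the hybrid was set against the midparent, defined as the average log2 level of CAST and 129. With p under 0.05 before adjustment the counts were 1, 6, 0 and 2 of 27 in these 4 comparisons, against 14.6%, 22.2%, 15.8% and 18.4% of all genes. DESeq2 called Sema3e lower in CAST than in 129; Plxnb3 higher and Sema3d and Sema3e lower in the hybrid than in 129; none in the hybrid against CAST; and Plxnb3 higher in the hybrid than the midparent. Over all 14839 genes DESeq2 called 939, 2100, 1597 and 1790 in these 4 comparisons. Limma-voom called none of the 27 in any of the 4, where it called 263, 1138, 998 and 1173 of all genes.

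The libraries of the compared lines did not overlap for 5 of 27 genes in CAST against 129, 9 of 27 in the hybrid against 129 and 1 of 27 in the hybrid against CAST, where 28.6%, 37.5% and 19.2% of all genes did not overlap. The median log2 fold change over the 27 genes was −0.12 in CAST against 129, −0.46 in the hybrid against 129, −0.43 in the hybrid against CAST and −0.48 in the hybrid against the midparent, beside 0.06, 0.02, −0.08 and −0.02 over all genes. Without CAST 1 and hybrid 2 the medians over the 27 genes were 0.04, −0.34, −0.46 and −0.35, and with a per-library correction for exon length −0.03, −0.22, −0.10 and −0.20, again with 0 of 27 called by edgeR in each. The comparisons share libraries: the 129 cultures enter 2 of the pairwise ones, and so do those of CAST and of the hybrid.

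**Figure D1:**
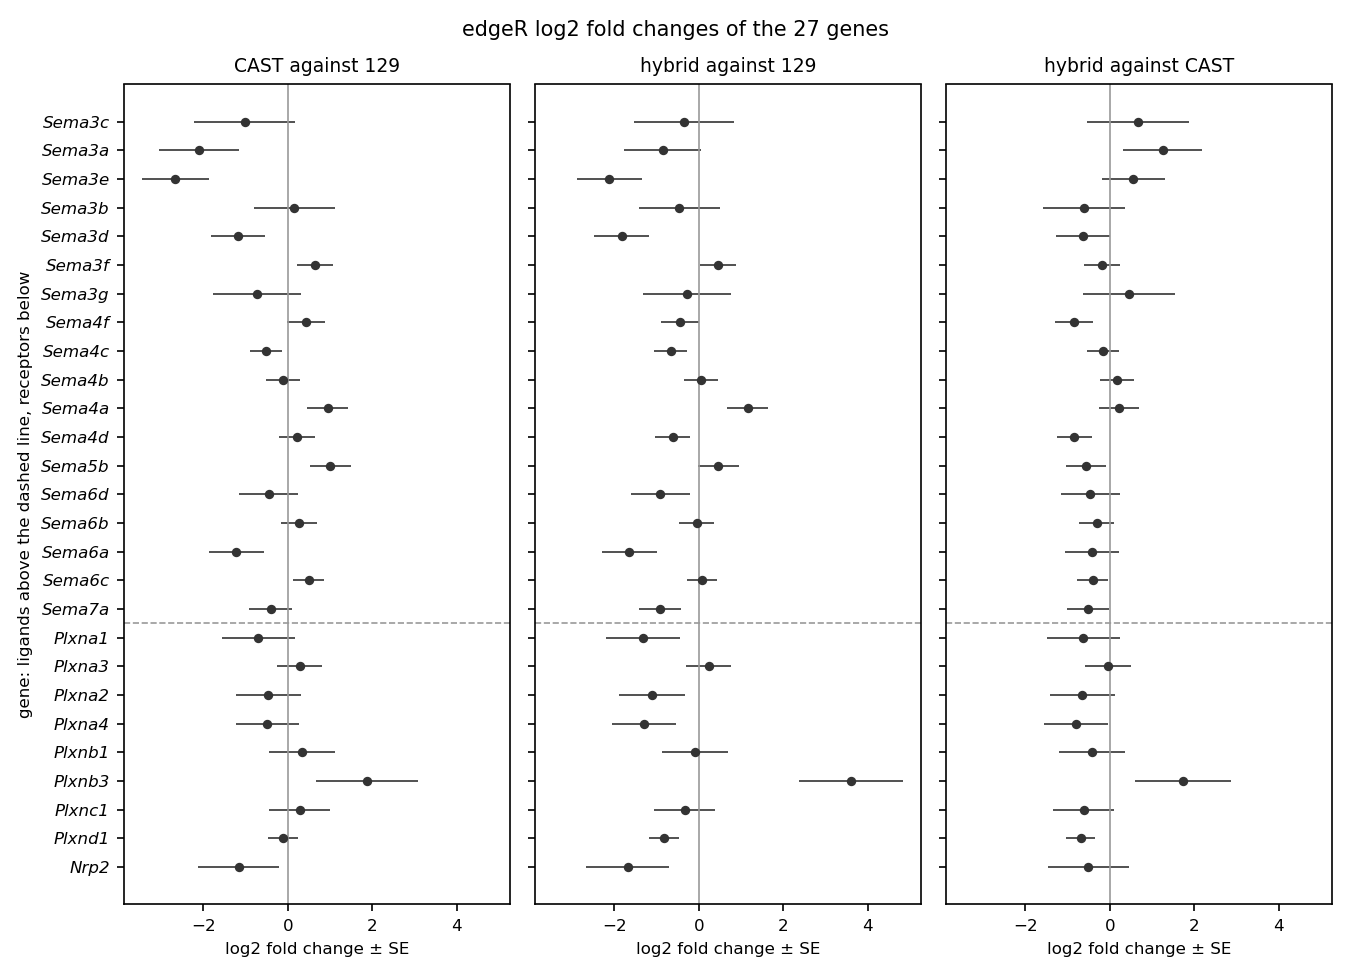
Log2 fold changes of the 27 genes on the horizontal axis, with SE bars, for CAST against 129, the hybrid against 129 and the hybrid against CAST (3 libraries per line, edgeR); ligands stand above the dashed line and receptors below it. Sema3e lies farthest to the left in the first panel at −2.67 and Plxnb3 farthest to the right in the second at 3.61, and no gene passed the adjusted threshold of 0.05.

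Levels of different genes were compared per kilobase of exon. Averaged over the 9 libraries, Plxna1 was highest at 43.3 CPM per kb and Sema3c next at 39.9, followed at a distance by Nrp2 at 15.9, Sema6d at 14.0, Plxna3 at 11.5 and Plxnb1 at 10.8. A further 18 genes lay between 1 and 10 CPM per kb. At the bottom were Sema5b at 0.757, Plxnb3 at 0.265 and Sema3g at 0.149 CPM per kb. The order at the top depended on the library: Plxna1 ranked between 1 and 4 in each of the 9, but Sema3c ranked first in 129 1, hybrid 1 and hybrid 2 and only at 12 in CAST 1. Neighbours in the middle band changed places between libraries: Sema3a ranked anywhere from 4 to 21, Sema4f from 1 to 15 and Sema4c from 9 to 13.

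Spread inside a line was wide in CAST and the hybrid and narrower in 129. The fold between the highest and the lowest library had a median over genes of 4.08 in CAST, 3.15 in the hybrid and 1.87 in 129. CAST 1 was the lowest CAST library for 22 of 27 genes and for all 9 receptors, and hybrid 2 the lowest hybrid library for 17 of 27 genes and 8 of 9 receptors. Among genes with reads in every library of a line, Sema3c varied most, by 21.8-fold among CAST libraries and 13.8-fold among hybrid libraries.

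**Figure D2:**
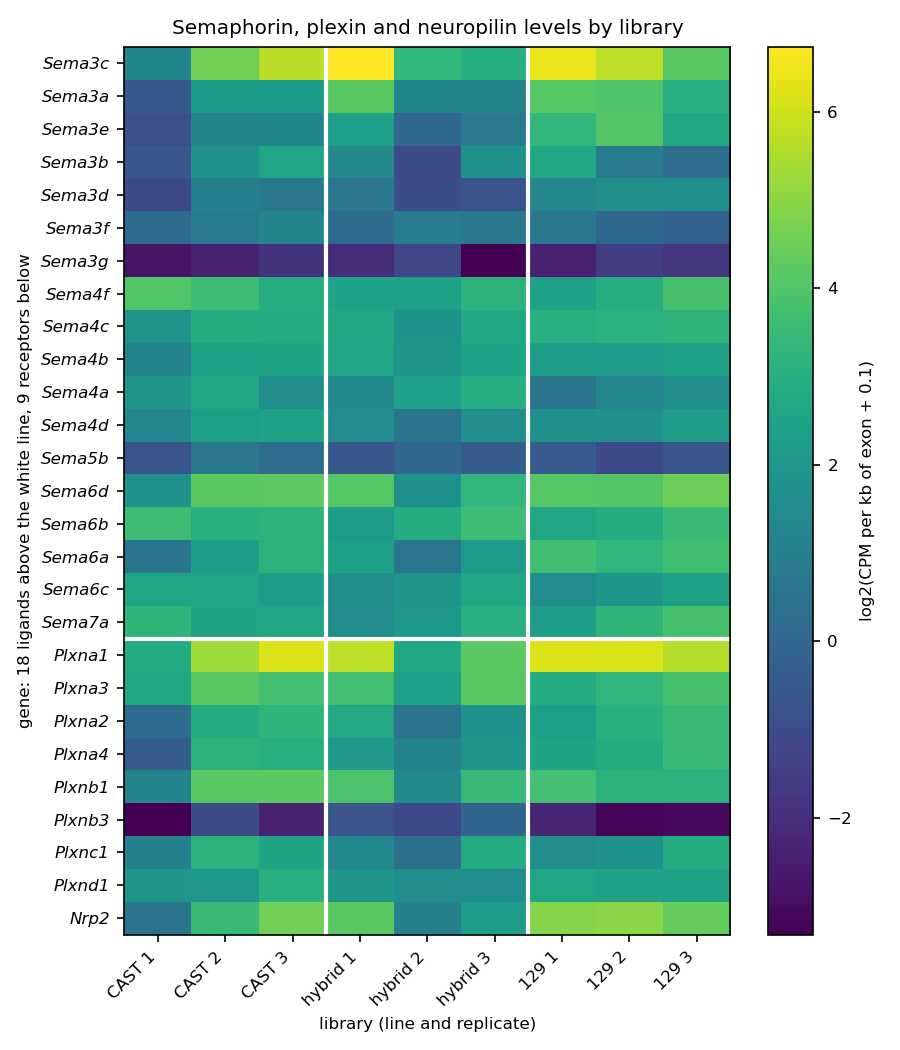
Heat map of log2(CPM per kb of exon + 0.1) for 18 ligands (above the white line) and 9 receptors (below) in the 9 libraries, ordered within each class by mean level. Plxna1 and Sema3c are the brightest rows, Sema3g and Plxnb3 the darkest, and the columns of CAST 1 and hybrid 2 are dark in most receptor rows.

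Among the secreted class 3 ligands, the most abundant, Sema3c, a cue for cardiac neural crest and cortical axons, stood at 16.9, 169.8 and 368.4 CPM in CAST 1 to 3, 758.3, 71.5 and 54.9 CPM in hybrid 1 to 3, and 614.5, 383.2 and 126.6 CPM in 129 1 to 3. Each line held both high and low libraries and the 3 ranges overlapped. The difference came to a log2 fold change of −1.02 ± 1.20 (SE) in CAST against 129 and −0.35 ± 1.19 in the hybrid against 129, and edgeR called neither (adjusted p = 0.665 in the first).

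Sema3e had the smallest p of the family in CAST against 129. It signals through Plxnd1 without a neuropilin and in mice marks certain motor pools, where it shapes which sensory inputs a motor neuron receives. On mm10 the gene spans chromosome 5 from 14025276 to 14256689 (plus strand), and Sema3d (from 12383385 to 12588948), Sema3a (from 13125414 to 13602565) and Sema3c (from 17574281 to 17730268) lie on the same strand of that chromosome. The level of Sema3e was 4.13, 21.3 and 21.9 CPM in CAST, 45.9, 8.80 and 14.9 CPM in the hybrid, and 93.4, 151.5 and 58.1 CPM in 129. All 3 CAST and all 3 hybrid libraries lay below all 129 libraries, while CAST and hybrid libraries overlapped. Its log2 fold change was −2.67 ± 0.79 (SE) in CAST against 129 (edgeR adjusted p = 0.168) and −2.12 ± 0.77 in the hybrid against 129 (adjusted p = 0.156). DESeq2 called both. Without CAST 1 and hybrid 2 the values were −2.26 and −1.73, with edgeR adjusted p-values of 0.135 and 0.11.

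Sema3a, the founding repellent of sensory and motor axons, was at 8.57, 60.5 and 61.0 CPM in CAST, 246.4, 32.4 and 31.4 CPM in the hybrid, and 240.0, 211.6 and 112.3 CPM in 129. CAST lay below 129 in every library, but hybrid 1 was as high as the highest 129 library. The log2 fold changes, −2.11 ± 0.95 (SE) in CAST against 129 and −0.86 ± 0.92 in the hybrid against 129, did not pass edgeR's test (adjusted p = 0.347 in the first). Sema3d, a secreted relative that patterns veins and neural crest derivatives, reached 3.10, 16.3 and 13.3 CPM in CAST, 12.9, 3.77 and 4.33 CPM in the hybrid and 20.6, 26.7 and 27.6 CPM in 129. Here too the 129 libraries all lay above the rest, and the log2 fold changes were −1.19 ± 0.64 (SE) in CAST against 129 (edgeR adjusted p = 0.407) and −1.83 ± 0.66 in the hybrid against 129 (adjusted p = 0.152). Without CAST 1, edgeR called Sema3d lower in the hybrid than in 129 (−1.82, adjusted p = 0.0485).

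The other class 3 members overlapped between the lines. Sema3b, which binds both neuropilins, averaged 15.9 ± 13.0 CPM in CAST, 10.3 ± 7.58 in the hybrid and 14.3 ± 13.2 in 129. Sema3f, the main Nrp2 ligand in motor and sympathetic axons, averaged 8.75 ± 3.07, 7.75 ± 2.04 and 5.64 ± 1.94 CPM in the same lines. Sema3g, known from vessels, averaged 0.481 ± 0.292, 0.725 ± 0.772 and 0.822 ± 0.394 CPM, and hybrid 3 had 0 reads, which allows up to 3 (SD, n = 3 for all). Over the class, 2 of 7 genes had a positive log2 fold change in CAST against 129, with a median of −1.02, and 1 of 7 in the hybrid against 129, with a median of −0.46, where 52.4% and 50.7% of all genes were positive. EdgeR called 0 of 7 in both, beside 0.917% and 7.02% of all genes, with 14.6% and 22.2% at an unadjusted p under 0.05 (1 and 2 of the 7 were under it; DESeq2 called Sema3e in the first and Sema3d and Sema3e in the second, limma-voom none).

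The summed class 3 level moved with the sum of a fibroblast marker list across libraries. It was 5.49, 37.5 and 68.4 CPM per kb in CAST, 134.2, 16.3 and 17.1 in the hybrid and 123.6, 91.2 and 37.5 in 129. A list of 12 fibroblast and mesenchyme markers, all detected, summed to 1015.7, 7189.6 and 10190.9 CPM in CAST, 39441.3, 4478.8 and 1723 CPM in the hybrid and 31131.2, 29832.5 and 7624.4 CPM in 129. Both sums put hybrid 1, 129 1, 129 2 and CAST 3 at the top in that order and CAST 1 at the bottom, and 5 of 9 libraries held the same rank in both. Fn1 alone held 20145.9 CPM of the marker sum in hybrid 1. Single markers did not all follow the sum, as Thy1 was highest in CAST 1 (381.1 CPM) and Twist1 in hybrid 2 (74.7 CPM). The highest class 3 sum was 24.4 times the lowest, or 7.83 times without CAST 1 and hybrid 2, whereas the class 4 sum spanned 1.96-fold and 1.59-fold. The plexin A sum spanned 6.94-fold and the plexin B sum 8.46-fold, or 2.39-fold and 2.13-fold without the same libraries. A wide range was not limited to class 3. Nrp2, the neuropilin in the matrix, ran from 1.37 CPM per kb in CAST 1 to 31.5 in 129 2. Without CAST 1 and hybrid 2 its lowest value was 4.86, in hybrid 3. Pan-neuronal markers summed to 11230, 6444 and 4638 CPM in CAST, 3606, 7450 and 9390 CPM in the hybrid and 3767, 5633 and 9445 CPM in 129. Within CAST and within 129 their order was the reverse of that of the class 3 sum, and in the hybrid the library highest in class 3 was lowest in these markers. Sema3c alone held between 43.2% and 79.1% of the class 3 sum. The part of fibroblasts and of neuronal content in the class 3 values was not tested, and in these bulk libraries fewer cells of a type and less RNA per cell cannot be told apart.

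**Figure D3:**
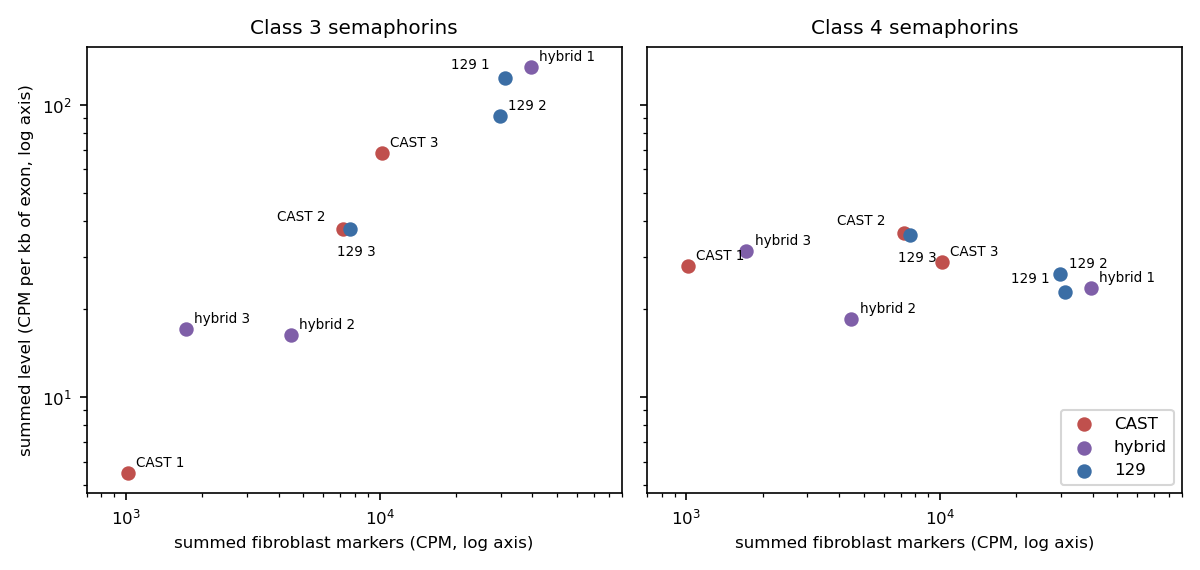
Summed level of class 3 (left) and class 4 (right) semaphorins in CPM per kb of exon against the summed CPM of 12 fibroblast markers, 1 point per library, both axes logarithmic. Class 3 runs from 5.49 in CAST 1 to 134.2 in hybrid 1 as the marker sum goes up, and class 4 stays between 18.5 and 36.3.

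**Figure D4:**
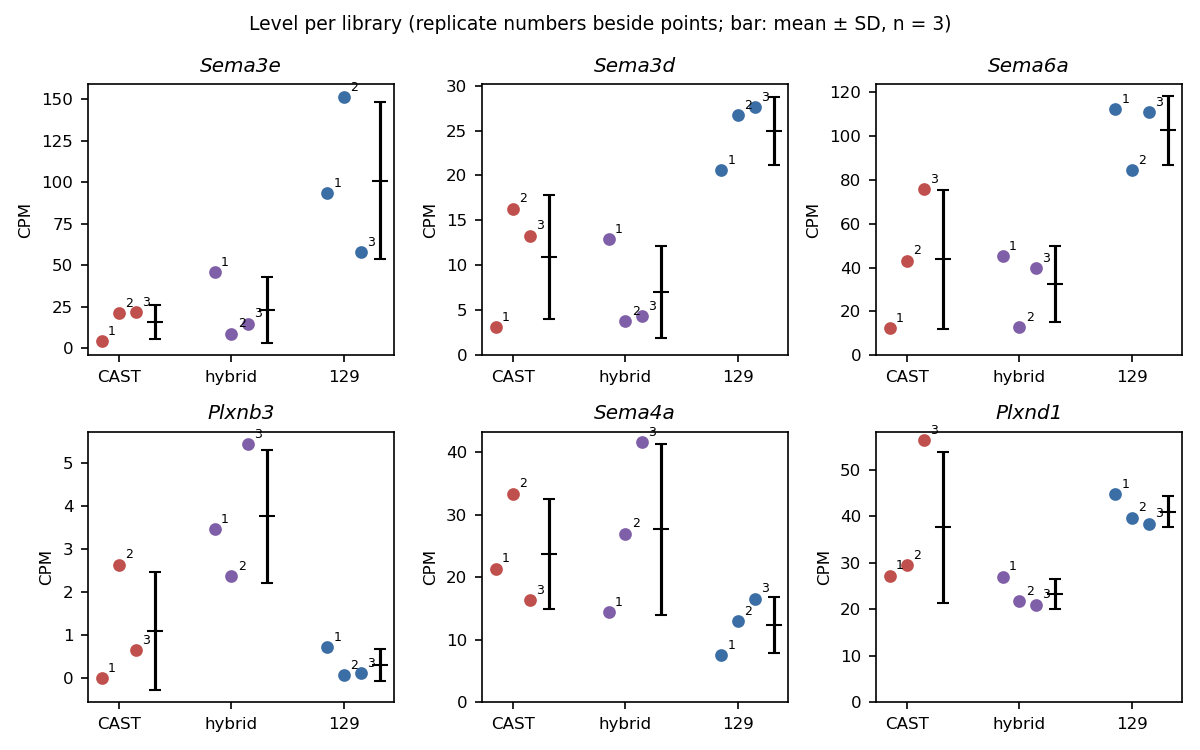
CPM of Sema3e, Sema3d, Sema6a, Plxnb3, Sema4a and Plxnd1, the 6 genes with an unadjusted p under 0.05 in the hybrid against 129, in each library (points with replicate numbers) with mean ± SD beside them, n = 3 per line. Hybrid points lie below all 129 points for Sema3e, Sema3d, Sema6a and Plxnd1 and above them for Plxnb3, and overlap with them for Sema4a.

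The summed class 4 level varied by 1.96-fold over the 9 libraries, against 24.4-fold for class 3 and 3.32-fold for class 6. Sema4f, a membrane semaphorin found at synapses and the most abundant of its class at 9.09 CPM per kb, had 83.5, 64.8 and 40.1 CPM in CAST, 29.8, 27.4 and 46.2 CPM in the hybrid, and 27.7, 40.4 and 72.8 CPM in 129. The 3 lines overlapped, and the log2 fold change was 0.42 ± 0.45 (SE) in CAST against 129, −0.45 ± 0.45 in the hybrid against 129 and −0.86 ± 0.45 in the hybrid against CAST (edgeR adjusted p = 0.425 in the last). Sema4a, known from T-cell priming and the retina, was at 21.4, 33.4 and 16.4 CPM in CAST, 14.4, 27 and 41.6 CPM in the hybrid and 7.62, 13.0 and 16.6 CPM in 129. Its libraries overlapped between the hybrid and 129, and the log2 fold change of 1.16 ± 0.49 (SE) had an adjusted p of 0.206 by edgeR; in CAST against 129 it was 0.94 ± 0.48 (adjusted p = 0.388).

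Sema4c, a ligand of Plxnb2, was at 16.5, 33.7 and 33.3 CPM in CAST, 29.2, 15.5 and 29.7 CPM in the hybrid and 37.3, 39.1 and 42.2 CPM in 129. Every CAST and hybrid library lay below every 129 library. The log2 fold changes of −0.51 ± 0.38 and −0.67 ± 0.39 (SE) against 129 did not pass (edgeR adjusted p = 0.526 and 0.319). Its exons overlap an antisense gene over 7.27% of their length. Sema4d, the ligand of Plxnb1 and, on immune cells, of Cd72, averaged 33.0 ± 12.6 CPM in CAST, 18.5 ± 6.59 in the hybrid and 28.4 ± 6.24 in 129 (SD, n = 3), and hybrid libraries lay below all 129 libraries (log2 fold change −0.62 ± 0.42, SE; edgeR adjusted p = 0.388). Against CAST the hybrid value was −0.84 ± 0.42 (adjusted p = 0.403). Sema4b stood at 25.4 ± 11.0 CPM in CAST, 28.6 ± 7.31 in the hybrid and 27.6 ± 2.18 in 129.

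Sema5b, the one class 5 ligand in the matrix, carries thrombospondin repeats and was low at 3.61, 10.7 and 7.81 CPM in CAST, 3.96, 6.43 and 4.75 CPM in the hybrid and 4.56, 2.62 and 3.79 CPM in 129. CAST 2 and CAST 3 were above all 129 libraries, but CAST 1 was not. Its log2 fold change was 1.01 ± 0.48 (SE) in CAST against 129 (edgeR adjusted p = 0.363), and 1.30 without CAST 1 and hybrid 2 (adjusted p = 0.146). The hybrid differed from 129 by 0.46 ± 0.48.

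In class 6, the transmembrane ligands of A plexins, Sema6d was highest at 37.1, 194.3 and 199.7 CPM in CAST, 176.3, 33.8 and 102.7 CPM in the hybrid and 176.4, 174.0 and 238.7 CPM in 129. CAST 1 and hybrid 2 lay far below the other libraries of their lines, and no comparison passed (log2 fold change −0.45 ± 0.70 in CAST against 129 and −0.91 ± 0.70 in the hybrid against 129, SE). Sema6a, which in mice helps boundary cap cells hold motor neuron bodies inside the cord, was at 12.5, 43.2 and 75.9 CPM in CAST, 45.1, 12.7 and 39.8 CPM in the hybrid and 112.2, 84.5 and 111.1 CPM in 129. All CAST and hybrid libraries were below all 129 libraries.

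The log2 fold change of Sema6a was −1.22 ± 0.65 (SE) in CAST against 129 (edgeR adjusted p = 0.399) and −1.65 ± 0.65 in the hybrid against 129 (adjusted p = 0.184). Without CAST 1 and hybrid 2 the hybrid value was −1.26, with an adjusted p of 0.0508. Sema6b, a Plxna4 ligand, averaged 39.0 ± 8.27 CPM in CAST, 31.4 ± 15 in the hybrid and 32.6 ± 10.6 in 129, and Sema6c averaged 33.1 ± 3.44, 24.9 ± 8.55 and 23.6 ± 6.86 CPM in the same lines (SD, n = 3). Sema7a, which binds Plxnc1 and integrins and promotes axon growth, was at 31.0, 19.2 and 19.5 CPM in CAST, 9.34, 13.1 and 26.2 CPM in the hybrid and 15.9, 31.5 and 45.1 CPM in 129. Its lines overlapped, with a log2 fold change of −0.41 ± 0.50 in CAST against 129 and −0.92 ± 0.50 in the hybrid against 129 (SE).

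The A plexins, which transmit class 3 and class 6 signals, held between 61.5% and 67.1% of the summed receptor level per kilobase in every library. Plxna1 led them at 65.7, 356.5 and 657.9 CPM in CAST, 474.0, 57.4 and 167.1 CPM in the hybrid, and 657.6, 654.1 and 441.8 CPM in 129. The 129 libraries were all high, while CAST and the hybrid each held libraries of either kind. For Plxna1 the log2 fold change was −0.70 ± 0.87 (SE) in CAST against 129 and −1.33 ± 0.88 in the hybrid against 129, neither called by edgeR, and 10.7% of the exonic bases of Plxna1 overlap an antisense gene. Plxna2, a Sema6a receptor, averaged 101.8 ± 74.3 CPM in CAST, 64.9 ± 45.5 in the hybrid and 141.0 ± 51.7 in 129. Plxna3, a Sema3f receptor with Nrp2, averaged 97.8 ± 45.7, 94.4 ± 50.2 and 80.7 ± 26.5 CPM in the same lines (SD, n = 3).

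Plxna4, the A plexin that relays Sema3a in sensory and sympathetic axons, was at 9.50, 123.1 and 111.1 CPM in CAST, 59.1, 30 and 51.1 CPM in the hybrid and 80.0, 104.8 and 157.1 CPM in 129. The hybrid libraries were all below those of 129, and CAST overlapped both. The log2 fold change was −1.29 ± 0.76 (SE) in the hybrid against 129 (edgeR adjusted p = 0.328) and −1.04 ± 0.68 in the hybrid against the midparent (adjusted p = 0.454). Without CAST 1, edgeR called the midparent difference at −1.30 (adjusted p = 0.0474); without CAST 1 and hybrid 2 it was −1.04 (adjusted p = 0.0724). With the correction for exon length the values were −0.37 against 129 and −0.23 against the midparent.

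Of the B plexins, Plxnb1, the Sema4d receptor, stood at 20.9, 171.6 and 175.5 CPM in CAST, 145.5, 25.8 and 100.8 CPM in the hybrid and 125.7, 82.7 and 83.0 CPM in 129. Outside CAST 1 and hybrid 2 its libraries lay between 82.7 and 175.5 CPM, and the log2 fold changes of 0.34 ± 0.78 in CAST against 129 and −0.10 ± 0.78 in the hybrid against 129 were smaller than their SE. Without these 2 libraries they were 0.80 (edgeR adjusted p = 0.246) and 0.35 (adjusted p = 0.474), so the sign of the second turned.

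Plxnb3, known as a Sema5a receptor and located on chromosome X from 73757090 to 73772514 (mm10, plus strand), had few reads: 0, 47 and 9 counts in CAST, 49, 17 and 78 in the hybrid and 13, 1 and 2 in 129. In CPM this was 0, 2.64 and 0.645 in CAST, 3.47, 2.38 and 5.45 in the hybrid and 0.723, 0.061 and 0.115 in 129. Each hybrid library was above each 129 library, CAST 2 lay among the hybrid libraries, and the count of 0 in CAST 1 allows up to 3 reads. The log2 fold change was 3.61 ± 1.24 (SE) in the hybrid against 129 (edgeR adjusted p = 0.135), 2.67 ± 0.94 against the midparent (adjusted p = 0.152), 1.73 ± 1.13 against CAST (adjusted p = 0.571) and 1.88 ± 1.21 in CAST against 129 (adjusted p = 0.467). DESeq2 called the first and second of these, and edgeR called the first when CAST 1 was left out (3.59, adjusted p = 0.0449). The size of both values against 129 rests on the single-digit counts of 129 2 and 129 3, and CAST 2 set much of the CAST level: without it, CAST against 129 was 0.18 and the hybrid against CAST 3.41.

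Plxnc1, the Sema7a receptor, was at 17.0, 73.8 and 48.6 CPM in CAST, 20.4, 10.2 and 59.9 CPM in the hybrid and 24.6, 28.6 and 61.6 CPM in 129. All 3 lines spanned a like range, with log2 fold changes of 0.28 ± 0.72 in CAST against 129 and −0.34 ± 0.72 in the hybrid against 129 (SE). Plxnd1, the Sema3e receptor best known from vessels, was at 27.2, 29.4 and 56.3 CPM in CAST, 27, 21.7 and 21 CPM in the hybrid and 44.7, 39.7 and 38.4 CPM in 129. The hybrid libraries lay below those of both parental lines, and Plxnd1 was the one gene of the family to do so against CAST.

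For Plxnd1 the log2 fold change was −0.82 ± 0.35 (SE) in the hybrid against 129 (edgeR adjusted p = 0.215), −0.69 ± 0.35 against CAST (adjusted p = 0.405), −0.76 ± 0.32 against the midparent (adjusted p = 0.237) and −0.12 ± 0.35 in CAST against 129. With the correction for exon length the hybrid values shrank to −0.38 against 129 and −0.42 against the midparent. Nrp2, the Sema3f co-receptor, was at 16.2, 131.3 and 280.3 CPM in CAST, 218.2, 23.9 and 57.6 CPM in the hybrid and 351.9, 373.3 and 240.8 CPM in 129. Hybrid libraries were all below 129, and CAST 3 reached into the 129 range. Nrp2 had a log2 fold change of −1.17 ± 0.97 (SE) in CAST against 129 and −1.69 ± 0.98 in the hybrid against 129 (edgeR adjusted p = 0.555 and 0.324).

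Set against each other, the ligand sum per kilobase exceeded the receptor sum in 8 of 9 libraries, but in 4 of 9 with no division by length, and the median ligand exceeded the median receptor in 3 of 9. Ligands summed to 66.4, 118.7 and 145.9 CPM per kb in CAST, 190.6, 55.3 and 89.3 in the hybrid and 190.3, 164.9 and 139.2 in 129. Receptors summed to 24.7, 115.5 and 158.5 CPM per kb in CAST, 116.8, 24.1 and 69.4 in the hybrid and 142.6, 146.8 and 126.5 in 129. The lowest sums of both kinds were those of CAST 1 and hybrid 2.

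The ratio of ligand to receptor level was 2.69, 1.03 and 0.920 in CAST, 1.63, 2.30 and 1.29 in the hybrid and 1.33, 1.12 and 1.10 in 129, or 1.55 ± 0.993, 1.74 ± 0.512 and 1.19 ± 0.130 (mean ± SD, n = 3). The 3 lines overlapped, CAST 1 and hybrid 2 had the highest ratios, and the means differed by less than the SD of CAST. The ratio depended on how it was formed. With no division by length it averaged 0.992 in CAST, 1.20 in the hybrid and 0.881 in 129, from medians over genes in place of sums 0.774, 0.963 and 0.681, and without Sema3c and Plxna1 it was 2.01, 1.82 and 1.51 in these lines. In the fits, ligands had a median log2 fold change of −0.26 and receptors of −0.12 in CAST against 129, with 8 of 18 and 4 of 9 positive. For the hybrid against 129 the medians were −0.45 for ligands and −0.82 for receptors, with 5 of 18 and 2 of 9 positive, where 52.4% and 50.7% of all genes were positive in the 2 comparisons. For the hybrid against CAST they were −0.36 and −0.62, with 6 of 18 and 1 of 9 positive, where 45.4% of all genes were. Of all 27 genes, 12, 7 and 7 were positive in these 3 comparisons. Leaving out CAST 1 and hybrid 2 made this 16, 12 and 7, and the correction for exon length 13, 9 and 8. The split by role was not repeated under these settings, and receptors are the longer genes (median exon length 9054 bases, ligands 5790).

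**Figure D5:**
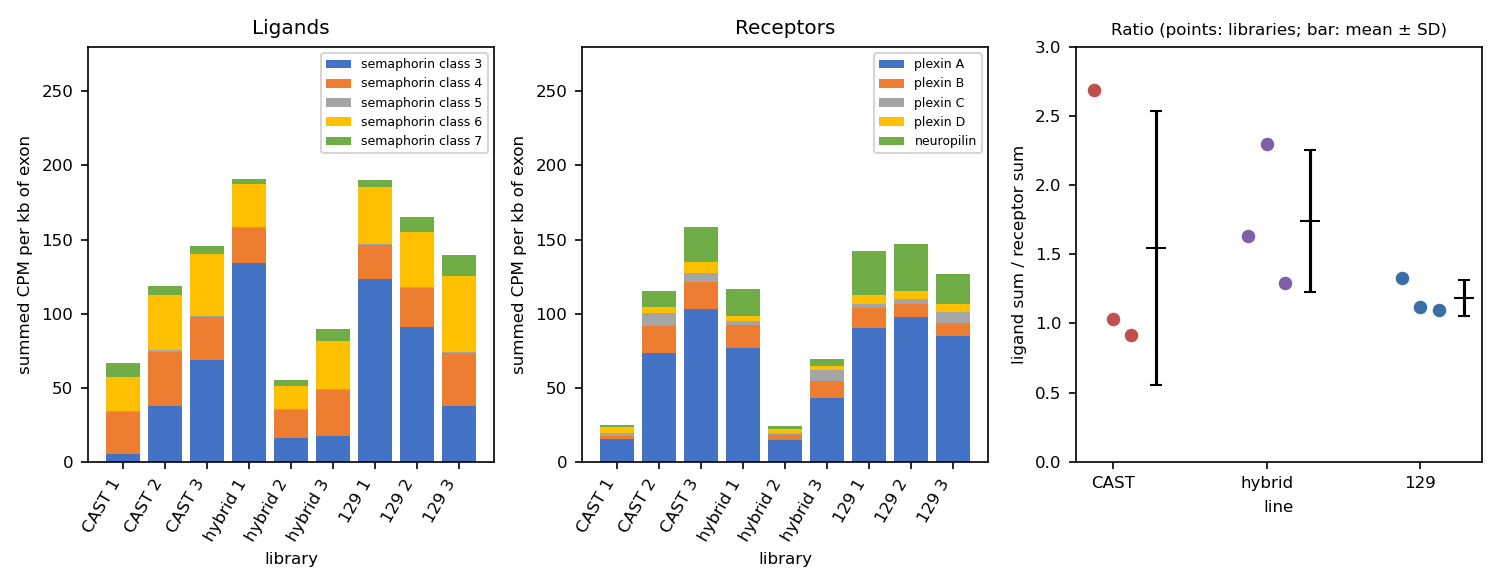
Stacked bars of summed CPM per kb of exon by class for ligands (left) and receptors (middle) in each library, and the ratio of the 2 sums by line (right; points are libraries, bars mean ± SD, n = 3). Plexin A makes up most of each receptor bar, class 3 varies most among ligand classes, and the ratio lies between 0.920 and 2.69.

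Known ligand and receptor partners were also compared within libraries, as the log2 ratio of their levels per kilobase. Sema3e against Plxnd1 was −3.06, −0.81 and −1.71 in CAST, 0.42, −1.65 and −0.85 in the hybrid and 0.72, 1.59 and 0.25 in 129. The ligand exceeded its receptor in all 129 libraries, in 1 hybrid library and in no CAST library, which restates the low Sema3e values of CAST. Sema3f against Nrp2 was −0.33, −2.72 and −3.38 in CAST, −4.12, −0.14 and −1.62 in the hybrid and −4.30, −5.07 and −4.66 in 129, so Nrp2 exceeded Sema3f in all 9 libraries and by most in 129. Nrp2 has 11842 exonic bases and Sema3f 5197. The ratio was nearest 0 in CAST 1, hybrid 2 and hybrid 3, the libraries in which long transcripts took fewer reads. The part of length in this ratio was not tested. Sema3c exceeded Nrp2 in 8 of 9, the exception being 129 3 at −0.20. Sema6d was below Plxna1 in all 9, at −1.36 ± 0.50 in CAST, −1.19 ± 0.40 in the hybrid and −1.79 ± 0.59 in 129. Sema4d against Plxnb1 averaged −1.14 ± 1.12, −1.72 ± 0.76 and −1.45 ± 0.57, and Sema7a against Plxnc1 0.54 ± 1.47, 0.69 ± 0.88 and 1.03 ± 0.40 in the same lines (SD, n = 3). Sema6a against Plxna2 averaged −0.10 ± 0.47, 0.06 ± 0.38 and 0.57 ± 0.64, and Sema3a against Plxna4 −0.66 ± 0.47, 0.51 ± 1.42 and 0.73 ± 1.07 (SD, n = 3). These ratios were not tested.

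Partners of the family were covered by 2 lists. The first held 17 co-receptors and signalling partners, of which 16 were tested. The second held 38 plexin effectors and genes of the collapse machinery, of which 36 were tested. In CAST against 129 edgeR called 0 of 16 and 0 of 36, beside 0.917% of all genes (1 and 3 lower at an unadjusted p under 0.05, as for 14.6% of all genes in either direction; DESeq2 called 0 and 3 lower, limma-voom 0 and 1 lower). In the hybrid against 129 edgeR called 1 gene of the first list higher, Cd72, and 1 of the second lower, Micall1. Over all genes, 5.41% were called higher and 1.60% lower. DESeq2, which called 624 of 14839 genes lower, called Met and Rac1 lower as well, and limma-voom called Cd72 and Micall1 alone. EdgeR called Met lower when CAST 1, with or without hybrid 2, was left out or in a fit of the hybrid and 129 alone. Without CAST 1 alone it also called Rnd2, of the second list, higher. Against CAST edgeR called Cd72 higher in the hybrid, beside 4.41% of all genes, and 0 of the 36 in the second list (3 at an unadjusted p under 0.05). DESeq2 called 3 of the 36 and limma-voom 0. Against the midparent edgeR again called Cd72 higher and Micall1 lower, beside 5.88% and 1.46% of all genes. DESeq2, which called 509 of 14839 genes lower, added Rac1, lower, and limma-voom added none. Without CAST 1, edgeR added Met, lower, and Rnd2, higher.

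Cd72 is the receptor through which Sema4d acts on B cells and lies on chromosome 4 from 43446462 to 43454628 (mm10, minus strand). It had 360, 552 and 676 counts in the hybrid, against 0, 1 and 0 in CAST and 0 in each 129 library. In CPM the hybrid stood at 25.5, 77.1 and 47.2. Every hybrid library was thus far above every parental one, a level at least 770.1-fold higher than in 129 with a floor of 3 counts over the group, and 1848.7 times that in CAST (95% counting interval 331.3 to 73066.5, exact Clopper-Pearson).

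EdgeR gave Cd72 an adjusted p of 0.000657 against 129, 0.000889 against CAST and 8.78e-05 against the midparent, and it passed under each alternative tried. Antisense exons of Tesk1 cover 41.6% of the exonic bases of Cd72, and whether counting used strand is not given in the sources used here. A list of 7 microglia and blood markers, of which 4 were detected and Hbb-bt and Hba-a1 were at 0, summed to between 26.3 and 45.4 CPM in the hybrid, 6.81 and 18.6 CPM in CAST and 4 and 7.47 CPM in 129. Cx3cr1 made up most of the hybrid sum, at 28.7 CPM, while Ptprc, the pan-leukocyte gene, averaged 0.909 CPM there. Csf1r, a receptor of macrophages and microglia, averaged 8.30 CPM in the hybrid, 9.92 in CAST and 5.48 in 129. A list of 8 oligodendrocyte markers summed to between 23.3 and 39.9 CPM in the hybrid, 8.26 and 20.6 CPM in CAST and 18.6 and 88.4 CPM in 129. Of these, Mog, a myelin gene, averaged 13.7 CPM in the hybrid, 0 in CAST and 0.185 in 129 (edgeR adjusted p = 0.0168 against CAST and 0.0337 against 129). Gfap, the astrocyte filament gene, averaged 181.4, 13.2 and 11.1 CPM in these lines (edgeR adjusted p = 0.0211 against the midparent, 0.0953 against CAST and 0.0691 against 129). It comes from a list of 8 astrocyte and radial glia markers that did not move as a set. Of 6 tested, 4 had a positive log2 fold change in the hybrid against 129 and 3 against CAST. Aqp4 averaged 23.8, 68.2 and 50.7 CPM and Aldh1l1 49.7, 69.8 and 86.4 CPM in the hybrid, CAST and 129. The part of such cells in the Cd72 reads was not tested.

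Micall1, a MICAL-like adaptor of endocytic recycling, lies on chromosome 15 from 79108898 to 79136900 (mm10, plus strand). It was at 47.2, 80.6 and 125.7 CPM in CAST, 37.2, 17.7 and 24.5 CPM in the hybrid and 115.2, 120.0 and 109.9 CPM in 129. Hybrid libraries were below those of both parental lines, and it fell by 2.12 ± 0.44 on the log2 scale in the hybrid against 129 (SE, edgeR adjusted p = 0.0183) and by 1.90 ± 0.40 against the midparent (adjusted p = 0.0176). The difference of −1.67 ± 0.43 from CAST did not pass (adjusted p = 0.0569), but it passed under 4 alternatives, namely DESeq2, the exon length offset, and edgeR without CAST 1 or without CAST 1 and hybrid 2 (adjusted p from 0.00421 to 0.0285). Leaving out 129 1, 129 2, 129 3, hybrid 2 or hybrid 3 ended the call against 129, with adjusted p-values from 0.0581 to 0.0800. The midparent call was lost without hybrid 2 (edgeR adjusted p = 0.0851) or hybrid 3 (adjusted p = 0.0845), and 26.7% of its exonic bases overlap an antisense gene.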

How the data were processed

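The values deposited by the authors are raw counts of reads per gene, with no normalization that the values show. Per the labels' protocols, polyadenylated RNA was selected and primed with random hexamers, and the submitters' processing notes name STAR and the build mm10. What counted the reads, and whether by strand, is not given in the sources used here.

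Symbols, exon lengths and overlaps came from GENCODE M21, which gave a symbol to 27030 of 27071 genes. Genes were kept by filterByExpr (minimum count 10, minimum total 15). EdgeR 4.0.16 (R 4.3.3) was used with TMM scaling and a robust quasi-likelihood fit that held all 3 lines and no covariate. Two-sided p-values were adjusted over 14839 genes by the Benjamini-Hochberg method, with a threshold of 0.05. DESeq2 1.42.0 and limma 3.58.1 were alternatives, beside other scaling, no filter, an exon length offset, a replicate block and libraries left out.

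Column numbers after the letter B were read as the labels' replicate numbers. Intervals and floors cover counting error only.

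Every gene of the family is named. By rule, values in each library are given for the most abundant gene of each class and for genes past the threshold, and from the partner lists for those past the threshold. Other genes shown by library were chosen after their values were seen. The genes and lists were chosen with earlier results of these data known.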

Additional observations from a re-analysis of the deposited data

How the results depend on the processing

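EdgeR's count of 0 called genes among the 27 held in the hybrid against CAST under each alternative run. DESeq2 called 1 in CAST against 129, 3 in the hybrid against 129 and 1 against the midparent. With 1 library left out the counts were 0 to 2 in the hybrid against 129 and 0 to 1 against the midparent. Over all genes, CAST against 129 had 136 calls, but 939 by DESeq2, 263 by limma-voom, 246 with the length offset, 230 without CAST 1 and hybrid 2 and 26 to 157 with 1 library left out. The hybrid against 129 had 1041, but 2100 by DESeq2 and 522 to 1717 with 1 library left out. The hybrid against CAST had 891, but 1597 by DESeq2, and the midparent comparison 1089, but 1790 by DESeq2 and 884 to 1850 with 1 library left out. The cause was not tested.

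Deviations from the group means correlated above 0.1 in 2 of the 9 pairs of libraries that share a replicate number (lowest −0.72, highest 0.49). The 2 were 129 1 with hybrid 1 (0.19) and 129 3 with hybrid 3 (0.49). Pairs with unequal numbers were not compared, so this check cannot decide whether equal numbers mark a pairing. With the replicate block, 6 genes were called in CAST against 129, 561 in the hybrid against 129 and 526 in the hybrid against CAST, 0 of 27 in each comparison, and Micall1 lost its calls (adjusted p = 0.0752 against 129 and 0.0728 against the midparent).

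Among the genes with a fold change given here, signs turned only for ones that edgeR did not call. In CAST against 129, Plxnb1 was −0.17 by limma-voom and −0.01 to 0.82 with 1 library left out, Plxnc1 −0.22 to 0.80, and Plxnd1 −0.54 to 0.05, 0.08 with the length offset and 0.04 without CAST 1 and hybrid 2. In the hybrid against 129, Plxnb1 was −0.63 to 0.35 with 1 library left out, 0.40 with the offset and 0.35 without both; Plxnc1 −1.33 to 0.18, 0.19 and 0.10; Sema3c −2.63 to 0.20, and 0.11 without both; and Sema4f −0.73 to 0.01. In the hybrid against CAST, Sema3a was 1.25, and −0.46 to 1.71 with 1 library left out. The ligand to receptor ratio in the hybrid was 1.20 with no division by length and 0.963 from medians, and in 129 it was 0.881, 0.681 and, without Sema3c and Plxna1, 1.51.

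With 3 libraries per line and spreads of several-fold inside CAST and the hybrid, a p above the threshold does not show that levels were alike.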
